A study of Elaeis guineensis with 58 samples.

Results

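The plastid genes whose products read and translate the plastid genome were followed in spear leaves of oil palm (Elaeis guineensis). They were taken by name: every row that begins with rps, rpl, rpo or rrn, together with infA and matK. The rule gave 31 of the 27986 rows of each count table, and 81 further rows were plastid genes. The 31 were 12 rps rows (proteins of the small ribosomal subunit), 9 rpl rows (proteins of the large subunit), 4 rpo rows (subunits of the plastid-encoded RNA polymerase), 4 rrn rows (ribosomal RNAs), infA (a translation initiation factor) and matK (a splicing factor for plastid introns).

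Plastids carry bacterial-type ribosomes and a bacterial-type RNA polymerase. Part of each machine is encoded in the plastid genome and the rest in the nucleus. In land plants a separate, nuclear-encoded polymerase transcribes rpoB, rpoC1, rpoC2 and a few other genes, and the plastid-encoded polymerase transcribes most photosynthesis genes. Many of the genes are co-transcribed as long RNAs that are then cut, spliced and trimmed. The machinery is built early in leaf development, before the photosynthetic complexes fill the thylakoids, and a spear leaf is the youngest, still unopened frond.

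The 58 libraries came from 52 palms, so each replicate of a group was a separate palm. The palms were ortets, the donors of tissue for cloning, and were grouped by how many embryoid lines they had yielded in the past. Agency L1 supplied 17 zero and 15 low palms (1 to 48 lines), all extracted with CTAB, of which 12 bore the genotype label Dumpy Avros and 20 Dumpy Yangambi Avros. Agency L2 supplied 6 zero palms, 6 low palms (2 to 37 lines) and 8 high palms (91 to 534 lines), all extracted with the InnuPREP Plant RNA kit. A second library, from a CTAB extract, was made for 6 of these L2 palms (2 of each group). Genotype followed group in L2. Yangambi_A was the label of every zero palm, Yangambi_B that of 4 low palms and Jen Avros that of 6 high palms. The low group also held a Jen Avros and a Yangambi_C palm, and the high group a Yangambi_C and a Jen Avros Yangambi palm. Reads were made from the 3′ end of RNA with a QuantSeq kit, which primes on stretches of A, and were shorter for L2 than for L1, per the labels. Total gene counts were 3943437 to 9685451 in L1, 8773354 to 15004694 in L2 InnuPREP and 4215872 to 7580573 in L2 CTAB libraries. All 7 leaf markers (rbcL, psbA, psbD, psaA, psaB, petB and atpB, which encode parts of the photosynthetic apparatus) had counts in every library. Their summed level was 4233 to 36300 CPM in L1, 2315 to 6535 in L2 InnuPREP and 3481 to 9976 in L2 CTAB libraries. CPM here is the depth-normalised read count, TMM-scaled over all libraries. It counts reads primed on stretches of A, and how far these follow the amount of each plastid RNA was not tested. In bulk leaf, fewer cells with developed plastids and less plastid RNA per cell cannot be told apart. In L1, 3 libraries stood apart: the machinery made up 1.02% of gene counts in zero palm 9, 1.15% in low palm 6 and 1.57% in low palm 15, against 2.04% to 4.14% in the other L1 libraries. Zero palm 9 also had the lowest share of multi-mapped reads in L1, 3.40% against a median of 24.7%.

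Not every member could be measured. In every comparison the same 22 members passed the filter on low counts and were tested: 10 rps, 7 rpl, 4 rpo and infA. The other 9 were rpl2, rpl23, rps7, rps19, the 4 rrn rows and matK. Of these, rpl23, rps19, rrn4.5, rrn5 and matK had 0 counts in all 58 libraries, which allows at most 0.200 CPM in the deepest library and 0.761 CPM in the shallowest. The untested others held few reads over all libraries together: 9 for rpl2, 59 for rps7, 65 for rrn16 and 81 for rrn23. These limits cover counting error only.

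The near-empty members sit together. In the plastid gene table of the EG11 assembly, 9 members are listed as 2 entries, as genes of the inverted repeat are, and 8 of those 9 were among the untested. The exception was rps12, a trans-spliced gene of the small subunit, with 2506 counts in all and 4 to 122 per library. Among the 22 members listed once, matK was the exception in the other direction. It lies within the intron of trnK-UUU, a lysine tRNA gene whose own row held 377352 counts. A similar split appeared among the other plastid rows, judged by a limit of at most 10 counts in every library. That limit was met by 9 of 10 rows listed as 2 entries, against 5 of 70 listed once. Among members it was met by 6 of 9 listed as 2 entries and 1 of 22 listed once. Reads with several alignments were set aside in a summary line of each table and made up 23.3% ± 8.28 of it across L1 libraries (SD, n = 32). The figures were 14.1% ± 2.78 for L2 InnuPREP (SD, n = 20) and 24.9% ± 5.77 for L2 CTAB (SD, n = 6). How many of those reads belong to these rows was not tested. The values of the rRNA rows therefore describe what was counted, not the rRNA content of the leaf.

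The share of gene counts taken by the machinery differed most between agencies and between extractions. It was 3.23% ± 0.736 in L1 zero palms (SD, n = 17) and 2.84% ± 0.839 in L1 low palms (SD, n = 15). For L2 InnuPREP libraries the share was 0.823% ± 0.215 among zero palms (SD, n = 6), 0.858% ± 0.138 among low palms (SD, n = 6) and 0.782% ± 0.207 among high palms (SD, n = 8). The 6 L2 CTAB libraries had 2.10% ± 0.386 (SD, n = 6), against 0.881% ± 0.192 (SD, n = 6) in InnuPREP libraries of the same palms, and every CTAB library was above the highest of those InnuPREP libraries, at 1.07%. As a share of all plastid counts, the machinery was 26.8% ± 2.41 in L1 (SD, n = 32), 26.9% ± 2.80 for L2 InnuPREP (SD, n = 20) and 33.8% ± 1.97 for L2 CTAB (SD, n = 6).

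Its make-up differed as well. In L1, rps rows held 65.0% ± 6.54 of the members' counts, rpl rows 20.0% ± 4.16, rpo rows 7.00% ± 1.66 and infA 8.04% ± 1.95 (SD, n = 32 each). In L2 InnuPREP libraries the rpl rows led, with 42.2% ± 3.21, followed by rps rows with 35.8% ± 2.88, rpo rows with 15.1% ± 2.32 and infA with 6.87% ± 0.833 (SD, n = 20 each). L2 CTAB libraries lay between for rps (50.8% ± 2.92), rpl (28.7% ± 2.63) and rpo (11.6% ± 1.30; SD, n = 6 each). The gene rps14 by itself held 36.3% ± 8.73 of the members' counts in L1 (SD, n = 32), 14.5% ± 3.30 for L2 CTAB (SD, n = 6) and 3.95% ± 0.994 for L2 InnuPREP (SD, n = 20).

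**Figure D1:**
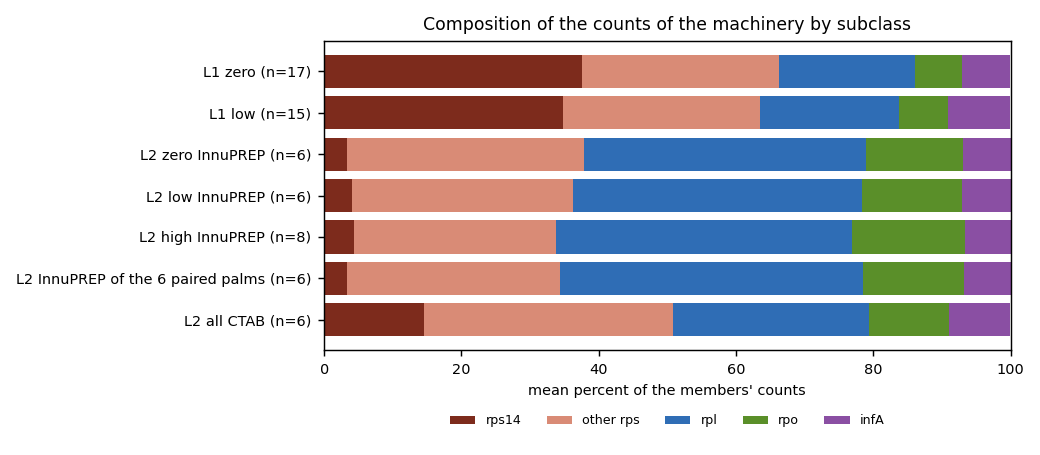
Mean percent of the members' counts (x axis) held by rps14, the other rps rows, the rpl rows, the rpo rows and infA in each set of libraries (bars, n in brackets). The rps14 segment is 36.3% over all L1 libraries, 14.5% in L2 CTAB libraries and 3.95% over all L2 InnuPREP libraries, and its means in the 3 embryogenesis groups of L2 InnuPREP libraries lie at 3.39% to 4.34%.

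**Figure D2:**
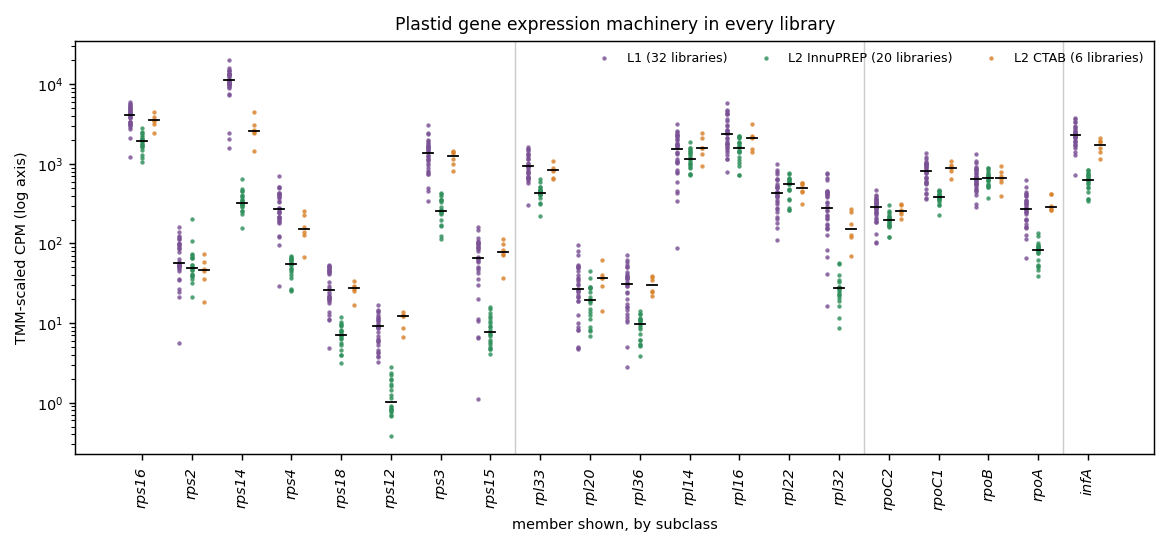
TMM-scaled CPM on a log axis of 20 of the tested members in every library (points) with the median (black line) of L1, L2 InnuPREP and L2 CTAB libraries. The L2 InnuPREP points of rps14 lie at 157 to 646 CPM and the L2 CTAB points at 1435 to 4530, while those of rpoB overlap.

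High-yielding L2 palms were set against zero and low palms together, the contrast the study's design text names. Few members changed. Of 22 tested members, 1 fell, rpl36, and none rose. Calls were made at an adjusted p below 0.05 in edgeR's quasi-likelihood test with Benjamini-Hochberg adjustment over all genes. Of all tested genes, 20.3% were called lower and 20.3% higher. The median log2 fold change of the members was -0.05, against 0.01 for all tested genes. By subclass, the medians were -0.09 for rps, -0.03 for rpl and 0.04 for rpo genes. Of the other plastid genes, 62 were tested, 4 were higher and 5 lower, and the median was -0.07.

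The gene rpl36 encodes a very small protein of the large ribosomal subunit and lies beside infA in a long transcription unit. Its level was 6.12 to 14.2 CPM in zero palms (median 10.8, n = 6) and 7.33 to 13.1 CPM in low palms (median 10.9, n = 6). In high palms it was 3.92 to 11.7 CPM (median 5.81, n = 8). The groups overlapped: 5 of the 8 high palms lay at 3.92 to 6.15 CPM, 4 of them below every zero and low palm, and the others at 8.51, 9.40 and 11.7. The fitted log2 fold change was -0.61 ± 0.20 (SE; edgeR adjusted p = 0.0186). Its counts were low, 50 to 168 per L2 InnuPREP library.

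Genotype label and yield group moved together here. The only Jen Avros palm in the low group had 11.0 CPM of rpl36, and the Jen Avros palms in the high group had 3.92 to 11.7. With genotype as a term the log2 fold change of rpl36 was -0.84 and no longer passed (edgeR adjusted p = 0.2). In the 6 CTAB libraries alone, 2 of them from high palms, it was -0.07 (edgeR adjusted p = 0.953). How many of all genes passed in those fits is not given here, so the loss is not shown to be particular to rpl36. The call also ended when libraries were scaled on the plastid genes outside the machinery, where rpl36 was at -0.47 (edgeR adjusted p = 0.0574). That scaling called rps2, a small-subunit gene, higher in high palms instead, at 0.88 (edgeR adjusted p = 0.0125), and moved the median of all genes to 0.17.

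The members nearest to a call in this contrast were both ribosomal, rps2 and rpl22. On the usual scaling rps2 was at 0.68 ± 0.28 (SE; edgeR adjusted p = 0.062), with 203.8 CPM in high palm 7 and 35.5 to 107 CPM in the other 7. In zero palms rps2 ran from 21.2 to 65.9 CPM and in low palms from 32.2 to 73.1. The large-subunit gene rpl22 was at -0.41 ± 0.20 (SE; edgeR adjusted p = 0.0991). These 2 and rpl36 were the members with an unadjusted p below 0.05.

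**Figure D3:**
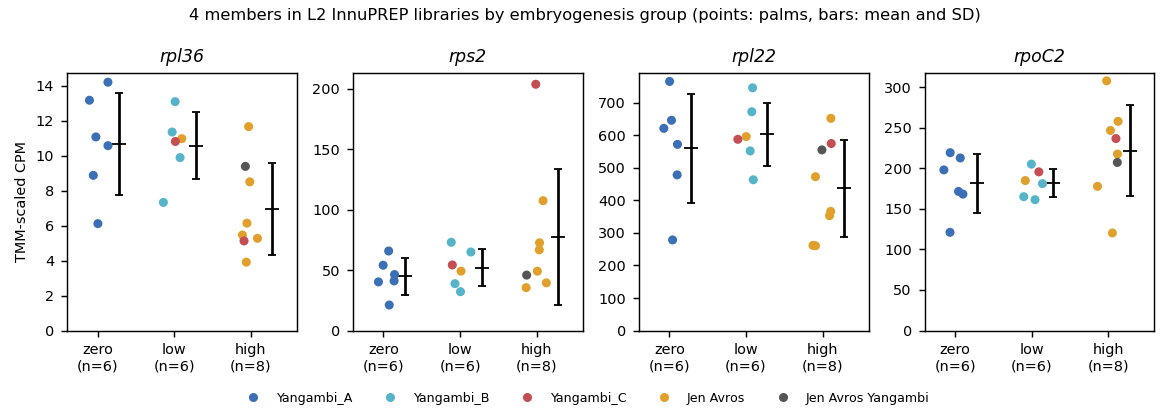
TMM-scaled CPM (y axis) of rpl36, rps2, rpl22 and rpoC2 in L2 InnuPREP libraries by embryogenesis group; points are palms coloured by genotype label, bars show mean and SD. For rpl36 the high palms spread from 3.92 to 11.7 CPM across the zero and low palms. For rps2, 1 high palm of genotype Yangambi_C stands out at 203.8 CPM, while the Yangambi_C palm of the low group had 54.3 CPM.

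When the reference was split, high palms against zero palms gave the same single call. Here rpl36 fell, at -0.61 ± 0.23 (SE, edgeR adjusted p = 0.0462), where 17.6% of all tested genes were lower and 18.3% higher. The L2 contrasts share palms, so they are not separate evidence. The call was lost in 10 of the 20 fits that left out 1 palm (low palm 1, any of high palms 1, 2, 3, 5 and 7 or any of zero palms 2, 3, 4 and 6), with edgeR adjusted p from 0.0108 to 0.111 over the 20. It also ended without a filter on low counts (edgeR adjusted p = 0.0563) and on plastid scaling, where rpl36 was at -0.49 (edgeR adjusted p = 0.0999) and rps2 was called higher instead, at 1.00 (edgeR adjusted p = 0.0285). Against low palms 0 of 22 members were called by edgeR, against 28.1% of all tested genes; 1 had an unadjusted p below 0.05, and DESeq2 called 1. That member was again rpl36, at -0.61 ± 0.23 (SE; edgeR adjusted p = 0.057; DESeq2 adjusted p = 0.0405). The polymerase gene rpoC2 was at 0.27 ± 0.18 (SE; edgeR adjusted p = 0.254). Levels of rpoC2 were 121 to 219 CPM in zero, 161 to 205 in low and 120 to 308 in high palms. The initiation factor gene infA was at -0.17 ± 0.22 (SE; edgeR adjusted p = 0.589).

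Low palms of L2 were also set against zero palms. None of the 22 members passed edgeR's test, none had an unadjusted p below 0.05 and DESeq2 called 0, where edgeR called 0.176% of all tested genes. The log2 fold changes lay between -0.13 and 0.25, with SE of 0.17 to 0.44. The members with the smallest p in each subclass were rps14 at 0.25 ± 0.25, rpl33 at 0.14 ± 0.19 and rpoB, which encodes the beta subunit of the polymerase, at 0.16 ± 0.19 (SE; edgeR adjusted p = 0.727, 0.823 and 0.79). For infA the value was 0.02 ± 0.23 (SE; edgeR adjusted p = 0.986). Zero palms held 157 to 450 CPM of rps14 and low palms 302 to 409.

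In L1, where only zero and low palms were available, no member was called. edgeR called 0 of 22 members and 0% of all tested genes; 1 member had an unadjusted p below 0.05, and DESeq2 called 0 members. The members' median log2 fold change was -0.12, against 0.03 for all genes, and the medians were -0.12 for rps, -0.26 for rpl and -0.10 for rpo genes. The lowest unadjusted p belonged to rpl20, a large-subunit gene, at -0.80 ± 0.35 (SE; edgeR adjusted p = 0.665). Its level was 12.8 to 95.3 CPM in zero palms (median 36.0, n = 17) and 4.79 to 81.3 CPM in low palms (median 19.1, n = 15).

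The rps gene of smallest p was rps15, which encodes a small-subunit protein. Zero palms had 30.5 to 163 CPM (median 81.5) and low palms 1.13 to 104 CPM (median 49.4). The 6 lowest L1 libraries for rps15 were all from low palms, at 1.13 to 19.8 CPM, and the other low palms overlapped the zero palms. The fold change of -0.67 ± 0.40 did not pass (SE; edgeR adjusted p = 0.727). The polymerase gene rpoA, for the alpha subunit, was at -0.21 ± 0.23 (SE; edgeR adjusted p = 0.872), and scaling on the other plastid genes, which put the median of all genes at 0.54, turned its sign. For infA, the share of the members' counts was 9.10% ± 2.33 among low palms (SD, n = 15) against 7.10% ± 0.805 among zero palms (SD, n = 17), while its own fold change was 0.19 ± 0.17 (SE; edgeR adjusted p = 0.83).

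The L1 genotype labels, compared with embryogenesis group as a term, separated no member. edgeR called 0 of 22 and 0% of all tested genes, none of the members had an unadjusted p below 0.05, and DESeq2 called 0 members. Fold changes of Dumpy Avros over Dumpy Yangambi Avros palms ran from -0.18 to 0.31 on the log2 scale, with SE of 0.17 to 0.42. The smallest p in each subclass belonged to rps18 at 0.31 ± 0.30, rpl16 at 0.18 ± 0.26 and rpoC2 at -0.14 ± 0.19 (SE; edgeR adjusted p = 0.86, 0.904 and 0.903). For infA the value was 0.03 ± 0.18 (SE; edgeR adjusted p = 0.981). The signs of infA and rps18 turned under plastid scaling, with the median of all genes at -0.25.

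Of the 8 comparisons run, that of RNA extraction methods called the most members. In the 6 L2 palms with a library from each method, CTAB gave higher values for 16 of 22 members and lower values for none. Of all tested genes, 25.3% were higher and 28.5% lower. The members' median log2 fold change was 1.46, against -0.03 for all genes. Genes of the small subunit led, with 9 of 10 higher and a median of 1.89. The large subunit had 3 of 7 higher and a median of 0.58, the polymerase 3 of 4 and 0.74, and infA rose as well. The 66 other plastid genes tested had 43 higher, 3 lower and a median of 0.75. In 14 of 22 members every CTAB library exceeded every InnuPREP library of the same palms. In 15 members the CTAB library was the higher in all 6 palms. Neither count was made over all genes, of which 53.8% were called in either direction, so neither is shown to be particular to the machinery.

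The small-subunit gene rps14 lies beside psaB and psaA and is co-transcribed with them in land plants. Its InnuPREP values were 237 CPM in high palm 3, 296 in high palm 8, 314 in zero palm 2, 349 in zero palm 6, 302 in low palm 5 and 397 in low palm 6. In CTAB libraries the same palms gave 1435, 2426, 2657, 3042, 2485 and 4530 CPM. All CTAB libraries were above all InnuPREP libraries, and the fold was 8.35 (log2 3.06 ± 0.11, SE; edgeR adjusted p = 4.77e-14). Its neighbours in that unit, which encode the core of photosystem I, were not called: psaB was at -0.41 ± 0.28 and psaA at -0.27 ± 0.14 (SE; edgeR adjusted p = 0.262 and 0.11). The most heavily counted small-subunit gene in the paired libraries, rps16, rose less, by 0.88 ± 0.10 (SE; edgeR adjusted p = 3.6e-07), from 1059 to 2482 CPM in InnuPREP to 2439 to 4494 CPM in CTAB libraries.

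Among large-subunit genes, rpl32 rose most, by 2.53 ± 0.20 (SE; edgeR adjusted p = 3.73e-06), from 16.5 to 39.9 CPM in InnuPREP to 70.6 to 268 CPM in CTAB libraries. The second was rpl36, the gene called between yield groups, which rose by 1.71 ± 0.15 (SE; edgeR adjusted p = 4.35e-08), with log2 ratios of 0.90 to 2.47 between the libraries of a palm. For rpl33 the rise was 0.93 ± 0.09 (SE; edgeR adjusted p = 8.56e-08). In contrast, rpl14, rpl16, rpl20 and rpl22 were not called by edgeR, at 0.35, 0.21, 0.58 and -0.21. Each of these 4 passed in 1 of the 6 fits that left out a palm: rpl14 (0.54) and rpl20 (0.79) without low palm 6, and rpl16 (0.30) and rpl22 (-0.29) without high palm 3. With all 6 palms, DESeq2 called rpl20 higher in CTAB libraries, at 0.55 (DESeq2 adjusted p = 0.00883).

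The 4 polymerase subunits did not move together. The alpha subunit gene rpoA rose by 1.91 ± 0.11 (SE; edgeR adjusted p = 9.9e-11), from 52.0 to 136 CPM to 260 to 421 CPM. Its partners rpoB, rpoC1 and rpoC2 (the beta, beta-prime and beta-double-prime subunits) lie next to each other and form a unit with rps2. Within it rpoC1 rose by 1.14 ± 0.09 (SE; edgeR adjusted p = 5.74e-09) and rpoC2 by 0.33 ± 0.11 (SE; edgeR adjusted p = 0.0116). The call of rpoC2 was lost without the palm block and in 3 of the 6 fits that left out a palm (high palm 8, zero palm 6 or low palm 5). The values of rpoB and rps2 were 0.02 ± 0.13 and -0.26 ± 0.32 (SE; edgeR adjusted p = 0.89 and 0.542). For rps2 the log2 ratio between the libraries of a palm ran from -1.87 in high palm 3 to 0.53 in zero palm 2. The initiation factor gene infA rose by 1.40 ± 0.09 (SE; edgeR adjusted p = 2.7e-10), from 363 to 785 CPM in InnuPREP to 1156 to 2093 CPM in CTAB libraries.

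Neighbours in the same transcription unit therefore differed widely. Of the 12 genes from rpl23 to rpoA, 9 were tested and 6 were higher. Among them, the log2 fold changes were 1.91 for rpoA, 1.71 for rpl36, 1.40 for infA, 0.35 for rpl14, 0.21 for rpl16, 1.97 for rps3 and -0.21 for rpl22. In the order of the EG11 table, rps3 thus sat between rpl16 and rpl22, neither of which was called. Another run of neighbours, which was not taken as a shared transcription unit, also varied. In that run rpl33 and rps18 rose by 0.93 and 1.81, and rpl20 was at 0.58 and not called by edgeR. Beside them rps12 rose by 2.92, from 0.678 to 2.22 CPM up to 6.74 to 13.7 CPM.

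Scaled on the plastid genes outside the machinery, 13 members remained higher in CTAB libraries and 5 were lower, with a shift of -0.68 in the median of all genes. The higher ones included rps14 at 2.39 and rps12 at 2.25. The lower ones were rps2 at -0.94, rpl22 at -0.88, rpoB at -0.65, rpl16 at -0.46 and rpoC2 at -0.34. Since the median of all genes fell too, lower values on this scaling were not particular to these members. The share of all genes called on it is not given here. Other measures moved with the method: the share of reads outside any gene was 18.3% ± 1.75 in the CTAB and 10.0% ± 0.551 in the paired InnuPREP libraries, and that of multi-mapped reads 24.9% ± 5.77 and 13.5% ± 3.48 (SD, n = 6 each). Their part in the result was not tested.

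**Figure D4:**
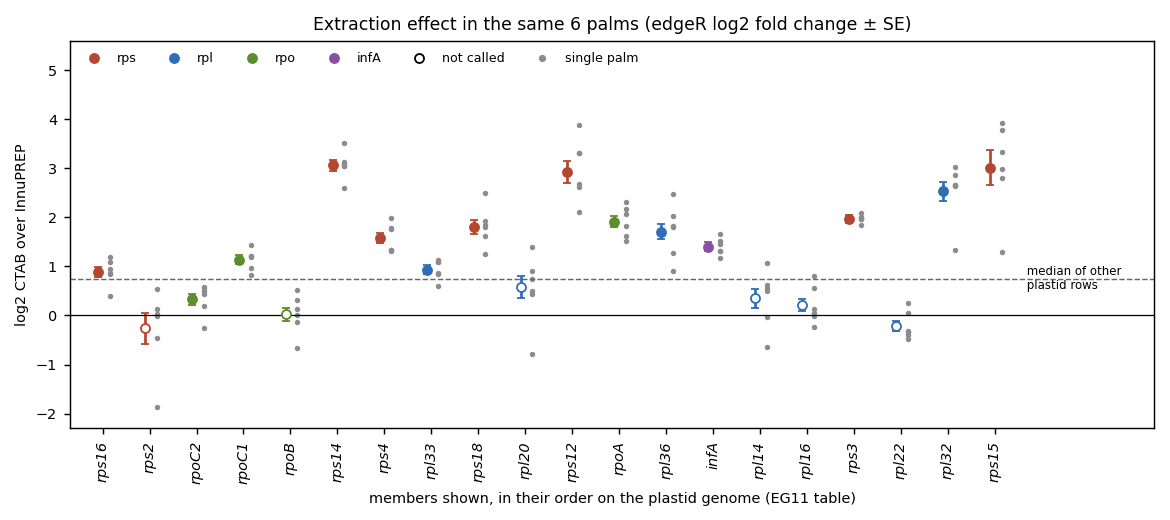
Log2 ratio of CTAB over InnuPREP (y axis) for 20 of the tested members in their order on the plastid genome (x axis); coloured points are the edgeR fold change with its SE, filled where called, and grey points are the 6 palms. Values run from -0.26 for rps2 to 3.06 for rps14, and neighbours such as rpl16 and rps3 differ; the dashed line marks the median of the other plastid rows, 0.75.

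With extraction held to CTAB, 6 L2 libraries were compared with the 32 L1 libraries. Few members were called, while most photosynthesis genes were lower in L2. Of 22 members, 2 were lower in L2 and none higher, where 18.3% of all tested genes were lower and 18% higher. The members' median was -0.17 on the log2 scale. Of 63 other plastid genes, 40 were lower and 2 higher, with a median of -1.13. Lower in L2 were 12 of 15 photosystem II genes, 4 of 5 photosystem I genes, 5 of 6 cytochrome b6f genes, 5 of 6 ATP synthase genes, 7 of 10 NDH genes and rbcL. The medians of the rpl and rpo genes were -0.04 and 0.07, and that of the rps genes -0.23.

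The lower members were rps14 and rps4, both of the small subunit. L1 libraries held 1588 to 20450 CPM of rps14 (median 11180, n = 32) and L2 CTAB libraries 1435 to 4530 CPM (median 2571, n = 6). All but 3 L1 libraries were above every L2 library, and those 3 were the ones that stood apart by their low share of machinery counts. The log2 fold change was -2.01 ± 0.36 (SE; edgeR adjusted p = 3.5e-05), and leaving out any 1 library kept it between -2.21 and -1.90 and called. For rps4, L1 libraries ranged from 29.2 to 698 CPM (median 269) and L2 libraries from 68.1 to 253 CPM (median 151), with wide overlap. Its log2 fold change of -0.91 ± 0.36 passed narrowly (SE; edgeR adjusted p = 0.0452) and did not pass in 13 of the 38 fits that left out 1 library (edgeR adjusted p from 0.015 to 0.106). Those left out L1 zero palm 3, 5, 10, 13, 15 or 16, L1 low palm 3, 10 or 13, or the CTAB library of high palm 3 or 8, zero palm 6 or low palm 5.

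How the rest of the machinery stood depended on what it was scaled to. Set against the other plastid genes, 16 members were higher in L2 and 1, rps14, was lower, at -0.97 (edgeR adjusted p = 0.0124), with the median of all genes at 0.89. Higher values on this scaling were therefore not particular to the machinery, and the share of all genes called is not given here. The higher members then included rps12 at 1.40, rpoA at 1.26, rpl22 at 1.19 and rpoC1 at 1.17. Agency, genotype label and read length cannot be told apart in this comparison, since no genotype label is shared between the agencies.

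**Figure D5:**
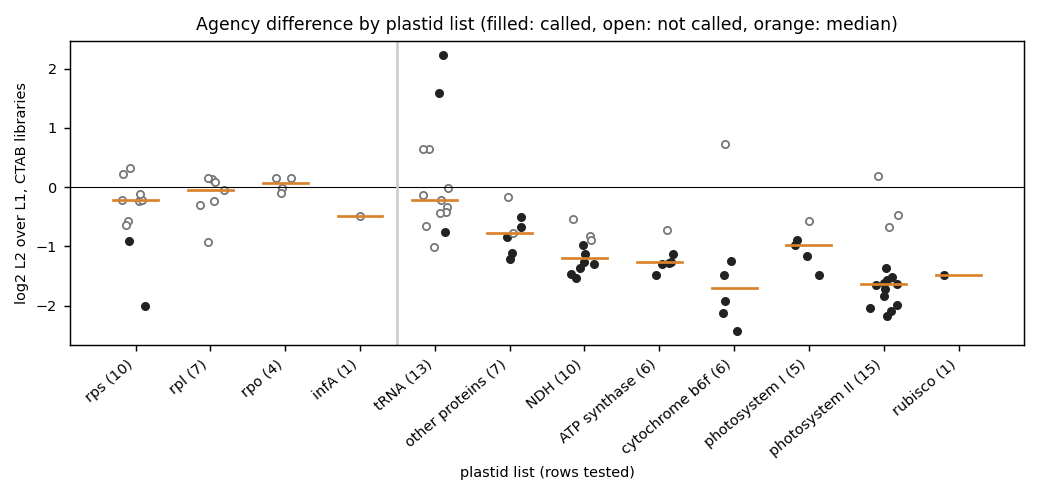
Log2 fold change of L2 over L1 in CTAB libraries (y axis) for each tested plastid gene, by list (x axis, number tested in brackets); filled points were called, open points were not, and orange lines are medians. The rps, rpl and rpo medians lie at -0.23, -0.04 and 0.07, against -1.64 for photosystem II and -1.71 for cytochrome b6f.

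Most tested members varied more among L1 libraries than among L2 InnuPREP libraries. The SD of log2 CPM was larger in L1 (32 CTAB libraries) than in L2 (20 InnuPREP libraries) for 20 of 22 members, rps12 not among them, with medians of 0.70 and 0.485. Extraction, agency and depth all differ between these sets, with mean gene counts of 6292203 in L1 and 12095610 in L2 InnuPREP libraries. The spread of all genes was not examined. In L1 the widest was rps15, with an SD of 1.57 and a 145-fold range, followed by rpl32 at 1.22 and rpl20 at 1.19. Without L1 low palm 6, left out after its low value was seen, the SD of rps15 was 1.24 and its range 25.4-fold, and 19 of 22 members had the larger SD in L1, with a median of 0.675. The tightest were rps16 at 0.46, infA at 0.47 and rpoB at 0.49. In L2 the tightest was rpoC1 at 0.25 and the widest rpl20 at 0.77.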

How the data were processed

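Spear leaf RNA of 52 palms was profiled in 58 QuantSeq forward libraries. The values used were read counts per gene, whole numbers without normalization, as deposited by the authors. The submitters' processing notes name bcl2fastq, STAR 2.7.2b and HTSeq 0.11.2. The genome build, strand setting and settings of these tools are not given in the sources used here, so reads of overlapping or antisense genes may not be separable. The 5 summary lines of each table stayed out of library sizes and tests. No pair of libraries held identical values. Where depths are given, they are total gene counts per library.

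Each comparison was fitted to all genes with edgeR 4.0.16 in R 4.3.3 (TMM scaling, filterByExpr, robust glmQLFit, glmQLFTest). Benjamini-Hochberg adjustment covered every gene of the fit, and calls were made below an adjusted p of 0.05. Dividing the fold change by the root of F gave its standard error. The fits were tested on simulated counts with known changes in a set of genes. Changes of 2-fold were recovered at 53.5% in L2 high against zero-low, 33.7% in L2 low against zero and 43.6% in L2 against L1. The figures were 70% in L1 low against zero, 59.1% between the L1 genotypes and 83.2% between extractions. Changes of 4-fold were recovered at 84.8% to 95.8%. Smaller changes of members can therefore have been missed. The extraction comparison kept the palm as a block, because the labels give the same palm identifier to the paired libraries. Over 19449 genes, deviations from each method's mean correlated at 0.71 to 0.83 for libraries of the same palm and did not exceed 0.27 for different palms.

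Alternatives were RLE scaling, DESeq2 1.42.0, no filter, scaling on non-plastid rows or on plastid rows outside the machinery, genotype or group terms, other library sets and leaving out single palms. Leaving out single L1 libraries in the agency comparison was chosen after seeing the data. Members given with values were those called. Where more than 8 were called, they were the most heavily counted and the 2 of largest change in each subclass, and where none was called, the member of smallest p in each subclass, with infA. Some members are not reported here by name. Further members were named after their values were seen. The members, gene lists and tests were chosen with earlier results of these data known. EG11 was used only for gene names and order.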

Additional observations from a re-analysis of the deposited data

Results flagged for a closer look

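In all, 88 sets of 6 or 8 libraries were examined, each a member in an L2 InnuPREP group or in the L2 CTAB libraries. In 1 set a library lay far from the others, a smaller share than the 1 in 20 that chance gives. The small-subunit gene rps2 had 203.8 CPM in L2 high palm 7, the only Yangambi_C palm of the high group, whereas the other 7 palms ran from 35.5 to 107 CPM. The Yangambi_C palm of the low group, L2 low palm 3, had 54.3 CPM. The cause was not tested.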

How the results depend on the processing

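For L2 high against zero-low palms, the 1 member called became 2 with DESeq2 (rpl36, and rps2 at 0.67) and 0 with genotype as a term or in the 6 CTAB libraries alone. Leaving out 1 palm gave 1 to 4 calls. The count rose without high palm 4, 5, 6 or 8, zero palm 1 or low palm 6, where rps2, rpl22 or rpoC2 were among those that joined rpl36, which stayed called in all 20 fits. For high against zero palms the call was lost without a filter on low counts (0 members), plastid scaling called rps2 (1.00) in place of rpl36, and leaving out 1 palm gave 0 to 1. It was 0 on leaving out low palm 1, any of high palms 1, 2, 3 and 7 or any of zero palms 2, 3, 4 and 6, and without high palm 5 the member called was rps2. For high against low palms DESeq2 called 1, and leaving out 1 palm gave 0 to 1, with 1 without high palm 6 or 8, zero palm 1 or low palm 4. For L2 against L1, the 2 calls became 4 with DESeq2 (infA among those added), 17 on plastid scaling and 1 with zero and low palms only. On plastid scaling the median of all genes rose too. Leaving out 1 library gave 1 to 4. It was 1 without L1 zero palm 3, 5, 10, 13, 15 or 16, L1 low palm 3, 10 or 13, or the CTAB library of high palm 3 or 8, zero palm 6 or low palm 5, and 4 without L1 zero palm 9. Signs turned on plastid scaling for rpoA in L1 (0.21), for infA and rps18 between the L1 genotypes (-0.24 and -0.01) and for rps4 between agencies (0.16). Without single palms infA ran from -0.11 to 0.11 in L2 low against zero and from -0.08 to 0.13 between the L1 genotypes. The cause was not tested. Without the replicate block, the extraction comparison called 15 members in place of 16 (rpoC2 lost), while the calls over all genes went from 11198 to 2875. Leaving out 1 palm gave 15 to 18. No other call of a member that the text names by the rule changed under the block. The counts for L2 low against zero, L1 low against zero and the L1 genotypes stayed at 0 in every alternative run. Apart from the fit without the replicate block, calls over all genes under these alternatives are not given here. A changed count of members is therefore not shown to be particular to the machinery. Among tested members depth limits rps12 most, with 4 to 122 counts per library.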
